A study of Astyanax mexicanus with 22 samples.

Results

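The response of Pachón cavefish ovaries to starvation was read from 12 of the 22 bulk RNA sequencing libraries of the series, chosen by the cave, batch and treatment in their titles. The 6 starved Pachón libraries (4 of the batch labelled old and 2 of the batch labelled new) were compared with the 6 control Pachón libraries (4 old and 2 new), whose treatment label reads Non-treated. All fish were Astyanax mexicanus of genotype WT, and each library came from a right-side ovary. The other 10 libraries are of surface fish (4 starved and 6 control) and are used only where the 2 forms are compared. Fish of about 500 and of about 1200 days are mentioned for the series, without a batch for either, and how long food was withheld is not stated in the sources used here. Whether each library is 1 fish is not stated, so p-values measure the spread between these samples, which may be technical.

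Pachón fish are a blind cave form of a river fish and are known for surviving long periods without food and for a low sensitivity to insulin. In a fish ovary, growing oocytes hold most of the RNA and store transcripts for the embryo. The follicle cells around them, granulosa inside and theca outside, carry the receptors for pituitary gonadotropins and make sex steroids, and a stroma of fibroblasts, smooth muscle and vessels holds the follicles. Feeding state reaches these cells through insulin and insulin-like growth factors, which act by receptor tyrosine kinases, docking proteins of the IRS family and the PI3-kinase pathway. In food shortage, lower insulin signalling and higher glucocorticoids classically turn on FOXO target genes.

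Between 4860620 and 7513790 reads per library were counted in genes, and 14568 genes passed the filter on low counts. The counts were 5665788 to 7513790 in starved and 4860620 to 5767831 in control libraries. Of all listed reads, 64.6% ± 0.945 were counted in genes in starved libraries and 59.2% ± 3.12 in controls (SD, n = 6 each), with no overlap (exact 2-sided permutation test within batches, p = 0.00476, the smallest that 420 arrangements allow, adjusted p = 0.0119 over 5 shares). Multimapping reads made up 9.64% ± 1.16 against 13.8% ± 2.67 (exact p = 0.00952, adjusted p = 0.0159), and unmapped reads 7.82% ± 0.636 against 9.53% ± 0.855 (exact p = 0.00476, adjusted p = 0.0119). The part of depth and read shares in the gene results was not tested. The summed oocyte markers lay between 2483 and 3412 CPM (counts per 1e+06 gene counts, scaled by TMM factors) in starved libraries and between 2146 and 3217 CPM in controls, so oocyte markers were abundant in all 12. Old-batch starved replicates 3 and 4 held liver transcripts, described further on. On the second principal component of log2 CPM, which held 14.2% of the variance, replicate 2 of the new control batch stood at 39.9, and the other libraries at -34.2 to 16.7. That library also had the highest multimapping share, 17.6%.

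No gene passed the threshold. With batch as a covariate, edgeR's quasi-likelihood test called 0 of 14568 genes (0%) at an adjusted p under 0.05, and the smallest adjusted p was 0.151. At an unadjusted p under 0.05 stood 1462 genes (10.0%), of which 751 were higher (5.16%) and 711 lower (4.88%) in starved ovaries. Limma voom with sample weights and limma on the deposited CPM also called 0 genes, DESeq2 called 20 (0.137%), and edgeR called 4 when replicate 2 of the old control batch was left out. All gene values below are therefore differences that did not pass this test, and an unadjusted p only places a gene among the others. Over 39 gene lists (pathways, cell types and complexes), 140 of 1123 tested members (12.5%) were at an unadjusted p under 0.05.

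What the libraries do give is a bound on the response. For 9363 genes (64.3%) the 95% interval of the change lay inside 1.5-fold in either direction, for 12041 (82.7%) inside 2-fold and for 14150 (97.1%) inside 4-fold. These intervals are per gene and not adjusted for their number. The share inside 2-fold was 51.7% without the filter on low counts, and 76.9% to 82.5% with single libraries left out. In 3 genes the interval lay wholly beyond 2-fold higher in starved ovaries, in 2 genes wholly beyond 2-fold lower, and in 0 beyond 4-fold. The higher ones included FLRT1 and hpxa, a liver transcript found mainly in old-batch starved replicates 3 and 4. The lower ones included ENSAMXG00000042222, a gene without a symbol (-2.96 to -1.36). These named genes are described further on. Precision followed abundance. Among the 905 genes with a mean log2 CPM under 1, 11.2% had an interval inside 2-fold, against 99.4% of the 1858 genes above 7, where the median interval reached 1.12-fold either way. Between the quantiles at 5% and 95% of genes, the estimated log2 changes lay between -0.40 and 0.52. The biological coefficient of variation among these libraries was 18.1%.

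**Figure D1:**
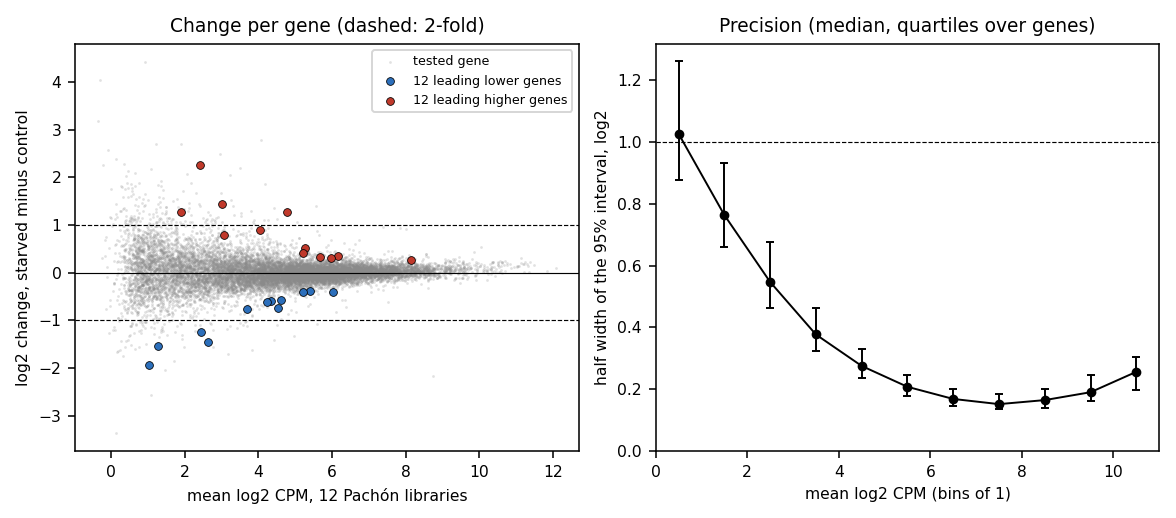
Left, log2 change (starved minus control) against mean log2 CPM for 14568 genes, with the 12 leading lower genes in blue and the 12 leading higher genes in red; right, median and quartiles over genes of the distance from the estimate to the end of the 95% interval, by bins of mean log2 CPM. The points spread more and the intervals are wider at low mean log2 CPM, and the dashed lines mark 2-fold.

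Among genes with a symbol and a mean log2 CPM of at least 1 whose estimates had the same sign in both batches, the 12 with the smallest p in each direction were taken as leading genes. The 12 lower ones differed by -0.39 to -1.95 on the log2 scale and had adjusted p between 0.239 and 0.397. The amyloid precursor gene APP, which codes for a membrane protein, had 42.8, 58.3 and 67.7 CPM in starved ovaries and 66.5, 72.5 and 82.2 CPM in control ovaries, a difference of -0.40 ± 0.076 (adjusted p = 0.239); here and below, CPM are the lowest, median and highest of 6 libraries, and differences are log2 values (starved minus control) ± SE. Its highest starved library, 67.7 CPM, lay above the lowest control, 66.5 CPM, but the groups did not overlap within either batch. IRS2, a docking protein of the insulin receptor that is listed separately from irs2a, had 1.63, 2.92 and 5.82 CPM in starved ovaries and 3.25, 9.37 and 12.3 CPM in control ovaries, a difference of -1.45 ± 0.28 (adjusted p = 0.239). Its difference was -1.45 in old and -1.45 in new libraries, and the groups did not overlap within either.

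The enzyme gene umps, which makes the pyrimidine nucleotide UMP, had 32.0, 35.6 and 42.4 CPM in starved ovaries and 44.3, 46.9 and 51.1 CPM in control ovaries, a difference of -0.39 ± 0.084 (adjusted p = 0.397). All 6 starved libraries lay below all 6 controls, also across batches. For cbfb, the partner subunit of RUNX transcription factors, the values were 2.06, 2.75 and 4.65 CPM in starved ovaries and 3.61, 7.53 and 10.5 CPM in control ovaries, a difference of -1.24 ± 0.28 (adjusted p = 0.397). The actin nucleator gene cobl had 7.23, 9.19 and 11.9 CPM in starved ovaries and 11.6, 15.5 and 21.4 CPM in control ovaries, a difference of -0.75 ± 0.16 (adjusted p = 0.397), with 1 starved library of the old batch above the lowest control. Of the other lower genes, otud7b (a deubiquitinase) had an estimate of -0.57 ± 0.13, DGKQ (a diacylglycerol kinase) of -0.59 ± 0.13, MADD (an exchange factor for Rab proteins) of -0.40 ± 0.10 and EML5 (a microtubule-associated protein) of -0.62 ± 0.14. MICAL2, an enzyme that oxidises actin, had 0.327, 1.11 and 1.89 CPM against 2.17, 3.13 and 4.20 CPM, and snrkb, a kinase of the SNF1-related family, had 0, 0.488 and 1.99 against 0.764, 3.12 and 4.70 CPM. The cholesterol exporter gene abca1a had 9.15, 18.3 and 29.4 CPM in starved ovaries and 21, 28.0 and 35.7 CPM in control ovaries, a difference of -0.75 ± 0.18 (adjusted p = 0.397), where old-batch starved replicate 4, at 29.4 CPM, lay inside the control range. In 9 of the 12 lower genes the starved libraries lay below the controls within both batches, which holds for 99 of all tested genes (0.680%). The genes were chosen by p and by 1 sign in both batches on the same values, which favours such separation. DESeq2 called 5 of the 12.

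The 12 leading higher genes differed by 0.27 to 2.26 and had adjusted p between 0.239 and 0.399. The transcription factor gene klf11a, of the Krüppel-like family, had 32.7, 35.7 and 54.0 CPM in starved ovaries and 8.18, 15.3 and 25.4 CPM in control ovaries, a difference of 1.28 ± 0.24 (adjusted p = 0.239). Its lowest starved library lay above the highest control, and old-batch starved replicate 4 was the highest at 54.0 CPM. FERMT1, which codes for the integrin activator kindlin of epithelial cells, had 2.84, 4.96 and 6.58 CPM in starved ovaries and 1.32, 1.82 and 2.48 CPM in control ovaries, a difference of 1.28 ± 0.26 (adjusted p = 0.271), again without overlap. The gene dpf3, a subunit of BAF chromatin remodelling complexes, had 7.89, 11.2 and 14.8 CPM in starved ovaries and 1.72, 3.21 and 8.06 CPM in control ovaries, a difference of 1.44 ± 0.35 (adjusted p = 0.397), and the starved minimum lay just under the control maximum. FLRT1, an adhesion protein of the membrane, had the largest estimate but an uneven one, with 0.689, 7.55 and 16.7 CPM in starved ovaries and 0.798, 1.67 and 2.32 CPM in control ovaries, a difference of 2.26 ± 0.53 (adjusted p = 0.397). Old-batch starved replicate 3, at 0.689 CPM, lay below all 6 controls, and the other 5 starved libraries lay above them.

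The zinc transporter gene slc39a13 had the smallest estimate of the 12, with 286, 308 and 322 CPM in starved ovaries and 223, 256 and 276 CPM in control ovaries, a difference of 0.27 ± 0.065 (adjusted p = 0.397), and no overlap. ARHGAP4 had 8.79, 10.0 and 12.3 CPM in starved and 3.25, 5.78 and 8.24 CPM in control ovaries (0.79 ± 0.19). The protease inhibitor gene serpinb1l2 had 11.9, 22.9 and 26.8 CPM in starved and 8.18, 10.5 and 16.1 CPM in control ovaries (0.89 ± 0.21). The ranges of serpinb1l2 overlapped, and those of ARHGAP4 did not. The other members were kat8 (0.34 ± 0.083), a histone acetyltransferase, ube2l3b (0.41 ± 0.10), a ubiquitin-conjugating enzyme, sh3bgrl3 (0.31 ± 0.077) and ptcd2 (0.33 ± 0.082), a mitochondrial RNA-binding protein. NHSL1 (0.53 ± 0.13) completes the 12. In 7 of them the starved libraries lay above the controls within both batches, against 59 of all tested genes (0.405%), and DESeq2 called 6. Here too the choice by p and sign on the same values favours separation and calls by another tool. The 2 smallest p-values of all belonged to genes without a symbol, both lower: ENSAMXG00000004586 with -1.16 ± 0.19 and ENSAMXG00000012954 with -1.09 ± 0.18 (adjusted p = 0.151 each). Another without a symbol, ENSAMXG00000042222, had 83.3, 165 and 213 CPM in starved and 327, 710 and 1096 CPM in control ovaries. It differed by -2.16 ± 0.36 (adjusted p = 0.239), without overlap, and had the smallest adjusted p with DESeq2, 5.05e-06. The genes without a symbol were chosen after their values were seen.

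**Figure D2:**
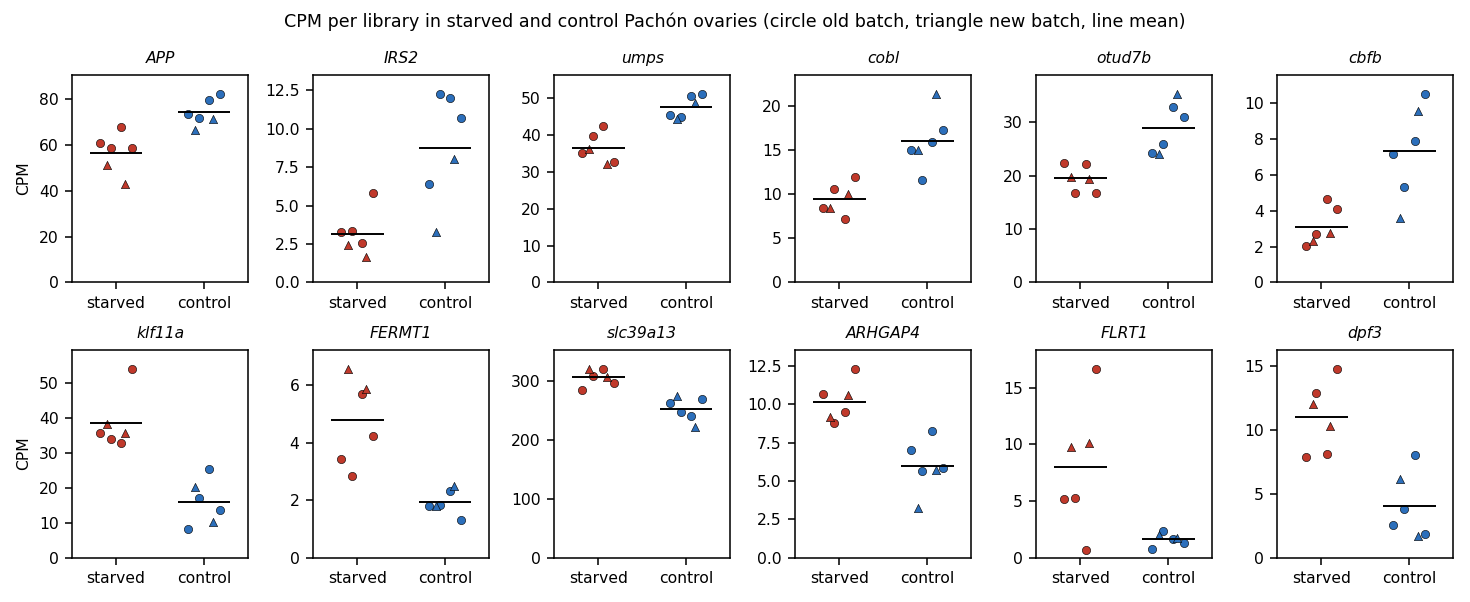
CPM per library in starved (left) and control (right) Pachón ovaries for 6 leading lower and 6 leading higher genes; circles are old-batch libraries, triangles new-batch libraries, and lines group means of 6. For umps, klf11a, FERMT1, slc39a13 and ARHGAP4 the groups do not overlap, whereas 1 starved library of FLRT1 lies at 0.689 CPM below the controls.

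Members of the insulin pathway were described as a list of 44 gene rows, of which 35 were tested. Of these, 5 were lower at an unadjusted p under 0.05 and 0 higher (14.3% and 0%, against 4.88% and 5.16% of all tested genes), and the median change was -0.092, against 0.0079 over all genes. The receptor gene igf1ra had 10.7, 14 and 15.8 CPM in starved ovaries and 16.2, 19.3 and 23.9 CPM in control ovaries, a difference of -0.54 ± 0.14 (adjusted p = 0.399). Every starved library lay below every control in that gene. The docking protein gene irs2a had 1.68, 2.74 and 6.22 CPM in starved ovaries and 2.53, 6.18 and 8.06 CPM in control ovaries, a difference of -0.85 ± 0.30 (adjusted p = 0.431); in the new batch replicate 1 of the starved group stood at 2.91 CPM, above 1 of 2 controls at 2.53. The regulatory PI3-kinase subunit gene pik3r1 had 70.4, 80.1 and 101 CPM in starved ovaries and 85.0, 100.0 and 113 CPM in control ovaries, a difference of -0.28 ± 0.10 (adjusted p = 0.431). Also at an unadjusted p under 0.05, and named after their values were seen, were the insulin receptor gene insrb (-0.16) and tsc1a (-0.18), an inhibitor of mTOR. The binding protein gene igfbp2b had an interval of -0.88 to 0.43. Its estimates had opposite signs in the old (0.31) and the new batch (-1.54). The list names irs2a, not the row IRS2 described above. With single libraries left out, the list median lay between -0.11 and -0.045.

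Among 26 tested FOXO and glucocorticoid targets, 2 were lower at an unadjusted p under 0.05 (7.69%, against 4.88% of all tested genes), 0 were higher, and the median was -0.0031, with either sign when single libraries were left out. The co-chaperone gene fkbp5 had 0.654, 6.45 and 19.2 CPM in starved ovaries and 4.16, 19.1 and 32.4 CPM in control ovaries, a difference of -1.11 ± 0.36 (adjusted p = 0.42), and its level in controls differed by batch, at 15.2 to 32.4 CPM in the old and 4.16 to 5.92 CPM in the new. TSC22D3, the glucocorticoid-induced leucine zipper gene, had 3.76, 4.86 and 5.51 CPM in starved ovaries and 5.64, 7.20 and 9.30 CPM in control ovaries, a difference of -0.61 ± 0.19 (adjusted p = 0.42), with all starved libraries below all controls. The muscle and fasting ubiquitin ligase gene fbxo32 was bounded closely, with 81.8, 86.6 and 93.0 CPM in starved and 75.9, 80.9 and 107 CPM in control ovaries and an interval of -0.13 to 0.15; the sign of its estimate, 0.0084, changed with the setting. For the fasting transcription factors the intervals were wider, -0.83 to 0.26 for KLF15 and -1.42 to 0.22 for foxo3b.

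Of 25 granulosa gene rows, 14 were abundant enough to be tested, and their median change was -0.50, -0.33 in old and -0.78 in new libraries. Of these, 3 were lower at an unadjusted p under 0.05 and 0 higher (21.4% and 0%, against 4.88% and 5.16% of all tested genes). Negative estimates numbered 11 of 14, against 7013 of 14568 over all tested genes, and the largest positive one was 0.31. Without the filter on low counts, which adds the rarer members, the median was -0.0096. In the new batch the summed list stood at 42.2 and 38.9 CPM in starved libraries, against 44.1 CPM in control replicate 1 and 89.6 CPM in control replicate 2, the library with the low gene share. In bulk tissue, fewer cells of a type and less RNA per cell cannot be told apart. The nuclear receptor gene nr5a1a, a regulator of steroid genes, had 2.29, 3.50 and 5.85 CPM in starved ovaries and 4.34, 7.02 and 10.2 CPM in control ovaries, a difference of -0.98 ± 0.26 (adjusted p = 0.402). The activin subunit gene inhbaa had 0.327, 0.727 and 1.32 CPM in starved ovaries and 0.997, 1.42 and 2.51 CPM in control ovaries, a difference of -1.08 ± 0.42 (adjusted p = 0.436), and the follicle-stimulating hormone receptor gene fshr 0.918, 1.51 and 3.57 CPM in starved ovaries and 1.63, 3.07 and 4.30 CPM in control ovaries, a difference of -0.78 ± 0.32 (adjusted p = 0.456). The 3 genes had overlapping groups, with the control of lowest level in the new batch for nr5a1a and fshr. The granulosa identity factor foxl2b, with 0.327, 1.42 and 2.40 against 1.33, 1.89 and 2.82 CPM, left an interval of -1.47 to 0.32. Too few counts were present to test amh (52 over 12 libraries) and the aromatase gene cyp19a1a (74). Their ranges overlapped, at 0.306 to 1.38 CPM in starved and 0 to 1.43 CPM in control libraries for amh. For cyp19a1a they were 0.517 to 1.84 and 0.498 to 2.35 CPM. The granulosa marker gsdf also overlapped, at 0.687 to 3.44 CPM in starved and 0.904 to 3.59 CPM in control libraries.

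The luteinizing hormone receptor gene lhcgr, of theca and mature granulosa cells, had 4.09, 4.93 and 9.99 CPM in starved ovaries and 7.47, 12.1 and 18.1 CPM in control ovaries, a difference of -1.12 ± 0.27 (adjusted p = 0.397). Old-batch starved replicate 3, at 9.99 CPM, was the only starved library above the lowest control. The nuclear progestin receptor gene pgr had 6.37, 11 and 23.0 CPM in starved ovaries and 12.6, 17.6 and 23.3 CPM in control ovaries, a difference of -0.60 ± 0.23 (adjusted p = 0.436), and old-batch starved replicate 1, at 23.0 CPM, was nearly as high as the highest control. Of 12 tested gonadotropin and progestin receptor genes, 4 were lower and 1 higher at an unadjusted p under 0.05 (33.3% and 8.33%, against 4.88% and 5.16% of all tested genes). The higher one was the membrane progestin receptor gene paqr5a (0.28 ± 0.12), and the lower ones were lhcgr, pgr, fshr and pgrmc2 (-0.19), the last named after its value was seen. The steroid enzyme gene cyp17a1 had 0.776, 1.63 and 2.12 CPM in starved ovaries and 1.40, 3.43 and 4.48 CPM in control ovaries, a difference of -1.13 ± 0.37 (adjusted p = 0.42). It was the only one of 9 tested steroid synthesis genes at an unadjusted p under 0.05 (11.1% lower and 0% higher). The gene star, which carries cholesterol into mitochondria, had 34 counts in all and was not tested.

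Stroma and matrix genes had a median of -0.17 over 25 tested members, which lay near 0 in the old batch (-0.019) and at -0.71 in the new. Of these, 5 were lower and 0 higher at an unadjusted p under 0.05. Over all tested genes, 4.88% were lower and 5.16% higher at that level. The collagen gene COL6A1 had 1.72, 2.86 and 4.63 CPM in starved ovaries and 3.59, 6.35 and 8.80 CPM in control ovaries, a difference of -1.09 ± 0.29 (adjusted p = 0.402), and the metalloproteinase inhibitor gene timp2a 1.63, 3.89 and 7.21 CPM in starved ovaries and 5.15, 8.60 and 10.9 CPM in control ovaries, a difference of -1.07 ± 0.32 (adjusted p = 0.409). The timp2a estimates were -0.66 in old and -2.02 in new libraries, a difference that did not pass its test (adjusted p = 0.854). The basement membrane gene HSPG2 was measured more closely, at -0.19 ± 0.070. The matrix genes sparc (-0.99 to 0.19) and col1a1b (-1.27 to 0.98) left wide intervals; in both, old-batch starved replicate 1 was the highest starved library, 12.2 and 39.3 CPM. Without the 2 libraries with liver transcripts the stroma median was -0.035 and the granulosa median -0.45. With single libraries left out, the medians lay between -0.38 and -0.052 for stroma and between -0.60 and -0.34 for granulosa genes.

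Of 15 tested smooth muscle genes, 3 were lower and 0 higher at an unadjusted p under 0.05. Over all tested genes, 4.88% were lower and 5.16% higher at that level. The list median was -0.12, between -0.19 and -0.040 with single libraries left out (nearest 0 without starved new replicate 1). The summed list overlapped in the old batch, at 1375 to 1677 CPM in starved and 1321 to 1798 CPM in control libraries. In the new batch it stood at 2132 and 1809 CPM in starved and 1853 and 1716 CPM in control libraries. The tropomyosin row TPM1 had 23.6, 28.2 and 35.8 CPM in starved ovaries and 28.7, 36.6 and 45.9 CPM in control ovaries, a difference of -0.34 ± 0.12 (adjusted p = 0.434), while a second row of the same name in lower case was also tested. The myosin gene myh11a had an estimate of -0.56 ± 0.25, the actin gene acta2 -0.71 ± 0.35 and tagln -0.50 ± 0.41. The intervals of acta2 and tagln included 0. A second row, TAGLN in upper case, had 0.918, 2.03 and 3.43 CPM in starved and 1.61, 2.37 and 4.15 CPM in control ovaries. Without old-batch starved replicate 1 the tagln estimate was -0.99, and without starved new replicate 2 those of tagln and myh11a were -0.30 and -0.37. Signalling by the TGF-beta family had 5 lower and 4 higher at that level of 38. These were 13.2% and 10.5%, against 4.88% and 5.16% of all tested genes. The BMP receptor gene bmpr1bb had 1.14, 2.22 and 3.78 CPM in starved ovaries and 2.89, 4.61 and 6.11 CPM in control ovaries, a difference of -1.06 ± 0.29 (adjusted p = 0.402), below the controls within both batches. The TGF-beta receptor gene tgfbr2b had 1.01 ± 0.34. LTBP1, which binds latent TGF-beta, had 0.83 ± 0.31, and its highest library was old-batch starved replicate 3 at 33.1 CPM; without that library its estimate was 0.50.

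**Figure D3:**
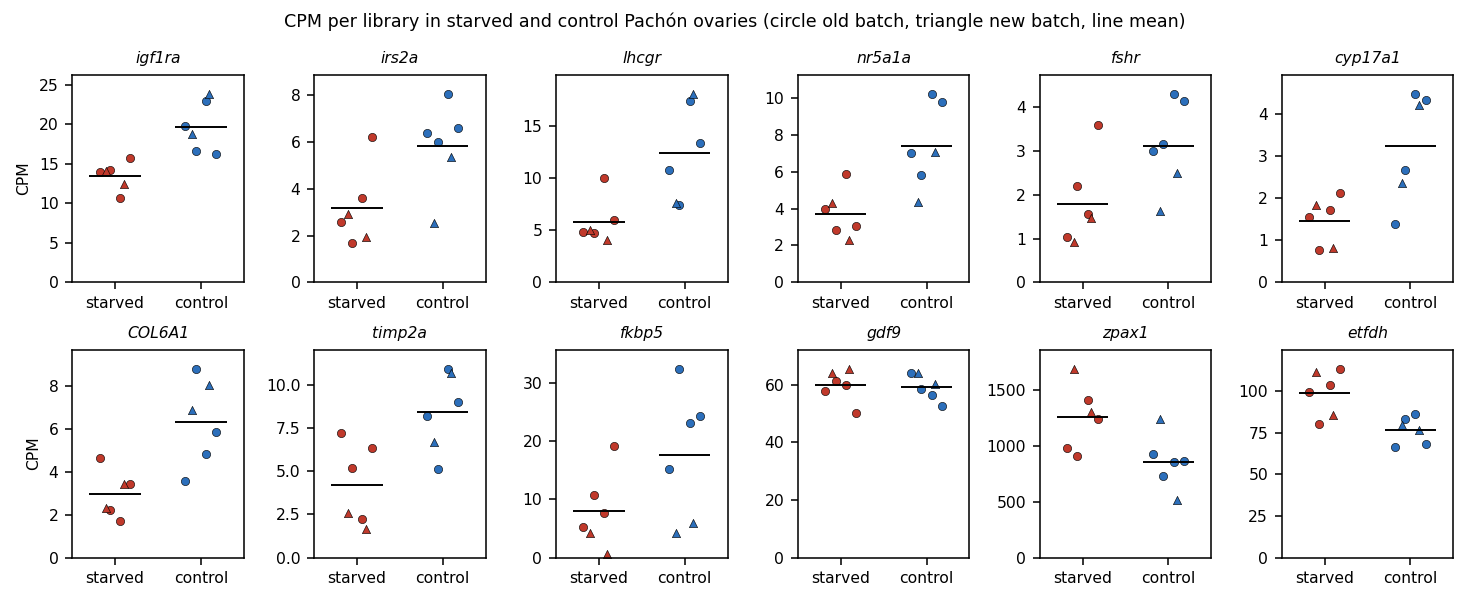
CPM per library in starved (left) and control (right) Pachón ovaries for 12 genes of the insulin pathway, follicle cells, stroma, fasting and oocytes; circles are old-batch libraries, triangles new-batch libraries, and lines group means of 6. For igf1ra the groups do not overlap, the groups of lhcgr overlap, and gdf9 has overlapping ranges, 50.3 to 65.5 and 52.6 to 64.0 CPM.

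Oocyte transcripts were bounded more closely. Over 28 tested members the median was 0.093, 0.017 in old and 0.25 in new libraries, and for 27 of them the interval lay inside 2-fold. The oocyte growth factor gene gdf9 had 50.3, 60.5 and 65.5 CPM in starved ovaries and 52.6, 59.4 and 64.0 CPM in control ovaries, a difference of 0.011 ± 0.072 (adjusted p = 0.968), and its interval was -0.14 to 0.16. Its partner bmp15 had 107, 113 and 143 CPM in starved and 105, 112 and 122 CPM in control ovaries, with an interval of -0.10 to 0.20. The signs of these estimates changed when single libraries were left out. The maternal-effect gene zar1 had 718, 865 and 1210 CPM in starved ovaries and 608, 847 and 975 CPM in control ovaries, a difference of 0.13 ± 0.15 (adjusted p = 0.771); old-batch starved replicate 3 was the highest library. The transcription factor gene figla, of early follicles, left -0.37 to 0.70. Of the 28, 2 were higher and 0 lower at an unadjusted p under 0.05 (7.14% and 0%, against 5.16% and 4.88% of all tested genes). The one with the smallest p, the DNA methyltransferase gene dnmt3bb.1, had 1.2, 1.57 and 2.24 CPM in starved ovaries and 0.332, 0.648 and 1.5 CPM in control ovaries, a difference of 1.01 ± 0.41 (adjusted p = 0.45). All 8 egg coat genes had positive estimates, against 7555 of 14568 over all tested genes, with a median of 0.18 (0.048 in old and 0.47 in new libraries). The egg coat median was 0.065 without control new replicate 2, whose summed level was 4406 CPM against 7897 CPM in replicate 1, and 0.079 without old-batch starved replicate 3. The oocyte median was 0.028 without control new replicate 2, 0.033 without old-batch starved replicate 3 and 0.028 without both libraries with liver transcripts. The egg envelope gene zpax1 had 910.0, 1269 and 1687 CPM in starved ovaries and 512, 857 and 1237 CPM in control ovaries, a difference of 0.54 ± 0.19 (adjusted p = 0.431).

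Genes of mitochondrial fat burning were split. Of 39 tested fatty acid oxidation genes, 5 were higher and 3 lower at an unadjusted p under 0.05 (12.8% and 7.69%, against 5.16% and 4.88% of all tested genes), with a median of 0.026. The 3 with the smallest p pass electrons from fat oxidation to the respiratory chain or carry out its last steps. The electron transfer flavoprotein dehydrogenase gene etfdh had 80.3, 102 and 114 CPM in starved ovaries and 66.6, 78.4 and 86.4 CPM in control ovaries, a difference of 0.36 ± 0.10 (adjusted p = 0.402), and etfb, a subunit of the flavoprotein itself, 119, 136 and 159.7 CPM in starved ovaries and 105, 113 and 134 CPM in control ovaries, a difference of 0.28 ± 0.080 (adjusted p = 0.402). The trifunctional protein subunit gene hadhb had 103, 112 and 119 CPM in starved ovaries and 83.6, 95.5 and 105 CPM in control ovaries, a difference of 0.22 ± 0.063 (adjusted p = 0.402). The rate-limiting carnitine transferase gene cpt1aa had -0.19 ± 0.18, with opposite signs in the old (0.074) and new (-0.72) batch. Among lower members, named after their values were seen, were pparab (-0.50), crata (-0.36) and acsl1a (-0.93).

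Of 30 tested glycolysis and gluconeogenesis genes, 3 were higher and 0 lower at an unadjusted p under 0.05 (10.0% and 0%, against 5.16% and 4.88% of all tested genes). The enolase gene eno1a had 72.9, 104 and 138 CPM in starved ovaries and 55.2, 71.0 and 96.6 CPM in control ovaries, a difference of 0.49 ± 0.13 (adjusted p = 0.402), and the glyceraldehyde phosphate dehydrogenase gene gapdhs 0.58 ± 0.22. Lipid synthesis genes had 1 higher and 2 lower of 35 (2.86% and 5.71%, near the shares of all tested genes). They were the phosphatidate phosphatase LPIN2 at -0.23 ± 0.067, the acyl-CoA synthetase acsl3b at -0.29 ± 0.11 and the lipid droplet gene bscl2 (seipin) at 0.39 ± 0.15. In cholesterol synthesis and transport 2 of 28 were lower (7.14%), abca1a among them, and 0 higher. Autophagy genes had 1 higher and 3 lower of 45 (2.22% and 6.67%, against 5.16% and 4.88% of all tested genes) and a median of -0.016. The initiating kinase ULK2 had -0.37 ± 0.10, atg10 -0.67 ± 0.24 and the protease atg4a 0.37 ± 0.14. Among lysosome genes 2 of 50 were higher (4.00%, against 5.16% of all tested genes) and 0 lower, the membrane protein gene lamp2 at 0.29 ± 0.10 and the proton pump subunit gene atp6v0d1 at 0.15 ± 0.054, in which starved libraries lay above controls within both batches. Of 38 cell death genes, 4 were lower and 1 higher (10.5% and 2.63%). The lower ones were the death inhibitor genes xiap (-0.24 ± 0.068) and bcl2l1 (-0.37 ± 0.14), the mitochondrial nuclease gene endog (-0.35 ± 0.14) and, named after its value was seen, bcl2l13 (-0.20). Circadian genes had 3 higher of 37 (8.11%) and 0 lower, hlfa at 1.14 ± 0.44 and nr1d2a at 0.46 ± 0.19, with old-batch estimates of 1.47 and 0.70 and new-batch estimates of 0.35 and -0.023. For hlfa, a transcription factor gene, old-batch starved replicate 4 stood at 29.3 CPM and the other 5 starved libraries at 3.60 to 9.82 CPM, and without that library the estimate was 0.49.

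Cytosolic ribosomal protein genes had a small positive median. Of 78 tested, 69 had positive estimates, against 7555 of 14568 over all tested genes. At an unadjusted p under 0.05, 11 were higher and 0 lower (14.1% and 0%, against 5.16% and 4.88% of all tested genes), and the median was 0.12. The median was 0.36 in the new and -0.0017 in the old batch. The large-subunit gene rpl26 had 239.8, 322 and 365 CPM in starved ovaries and 194, 249.5 and 292 CPM in control ovaries, a difference of 0.32 ± 0.11 (adjusted p = 0.431), RPL37 0.65 ± 0.25 and rpl30 0.24 ± 0.093. Nuclear genes of oxidative phosphorylation had 10 higher and 1 lower of 83, where 5.16% of all tested genes were higher and 4.88% lower. The median of this list was 0.073 (-0.024 in the old, 0.21 in the new batch). That median was 0.018 without control new replicate 2, whose summed level was 5969 CPM against 7498 CPM in replicate 1, and 0.043 without starved new replicate 1. The cytochrome oxidase subunit gene cox7a1 had 0.98 ± 0.31, the complex I subunit gene ndufv2 0.32 ± 0.11 and the ATP synthase subunit gene atp5meb -0.22 ± 0.073. Mitochondrial ribosomal proteins (7 higher, 1 lower of 73, 9.59% and 1.37%, median 0.070) and translation initiation factors (3 higher, 2 lower of 63, 4.76% and 3.17%, median 0.089) had medians of the same sign. These medians were 0.040 and 0.037 without control new replicate 2, and 0.043 and 0.045 without both libraries with liver transcripts. In the new batch replicate 2 of the controls, which stood apart in its read shares, had the lowest summed level of the ribosomal list, 15510 CPM against 22380 CPM in replicate 1, and without that library the list median was 0.042. Without old-batch starved replicate 3, which had the highest summed level, 26680 CPM, it was 0.061.

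**Figure D4:**
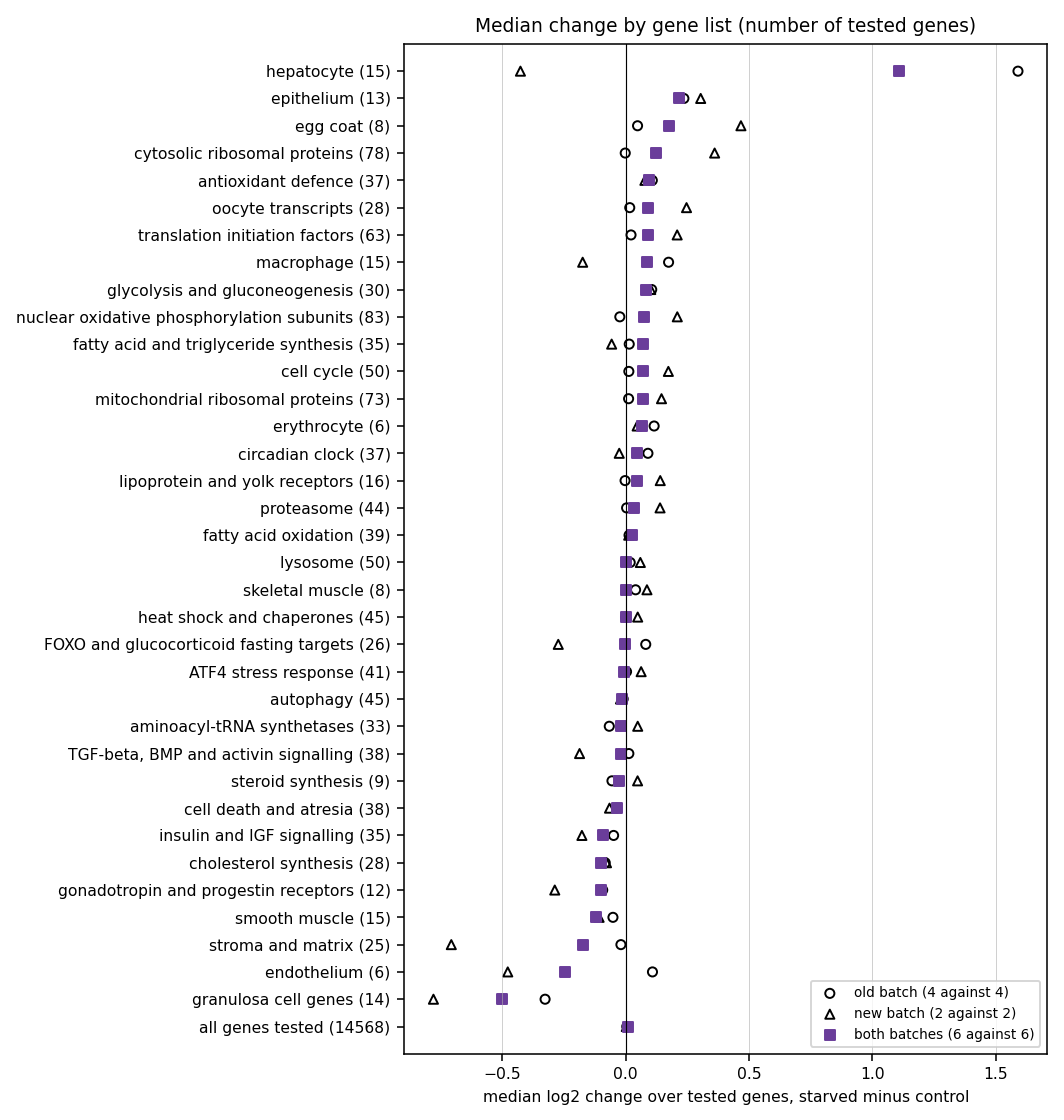
Median log2 change (starved minus control) of the tested genes of each list with at least 5 tested genes, in both batches together (squares), the old batch (circles) and the new batch (triangles), with the number of tested genes in brackets. Most lists lie near 0, the granulosa list is lowest, and the hepatocyte list lies at 1.59 in old and -0.43 in new libraries.

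Transcripts of other tissues set apart 2 starved libraries. Of 15 tested hepatocyte genes 7 were higher at an unadjusted p under 0.05 and 0 lower (46.7% and 0%, against 5.16% and 4.88% of all tested genes). Their median was 1.11, 1.59 in old and -0.43 in new libraries. The hemopexin gene hpxa had 4.30 and 11.8 CPM in old-batch starved replicates 3 and 4 and at most 0.153 CPM in the other 4 starved libraries, against 0 to 0.361 CPM in control libraries. The apolipoprotein gene apoa2 had 8.95 and 9.27 CPM in those 2 libraries, at most 1.03 CPM in the other starved ones, and 0.166 to 0.723 CPM in controls. The summed list stood at 124 and 140.3 CPM in the 2 libraries, at 58.3 to 82.9 CPM in the other starved libraries and at 67.9 to 91.3 CPM in controls. The hepatocyte median was 0.24 without replicate 3, 0.045 without replicate 4, 1.76 without control new replicate 2 and 0.048 under a stricter filter on low counts. Without the 2 libraries it was -0.059, 0 genes were called, and 927 were at an unadjusted p under 0.05, in a fit with fewer samples. List members at that level then numbered 65, against 140 with all 12 libraries. The part of liver RNA in the other results was not tested beyond these values.

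Epithelial genes had 4 higher and 0 lower of 13 (30.8% and 0%, against 5.16% and 4.88% of all tested genes) and a median of 0.21. The epithelial median was 0.089 without both libraries with liver transcripts, and 0.10, 0.13 and 0.13 without old-batch starved replicate 1, old-batch starved replicate 4 and control old replicate 4. The keratin gene krt4 had 1.14, 5.29 and 15.3 CPM in starved ovaries and 0.358, 0.853 and 3.98 CPM in control ovaries, a difference of 2.07 ± 0.55 (adjusted p = 0.402), with the highest starved value in replicate 3 of the old batch and the highest control value, 3.98 CPM, in replicate 2 of the old batch. The desmosome-linked gene ppl (periplakin) had 1.80, 3.12 and 6.72 CPM in starved ovaries and 1.2, 1.52 and 2.82 CPM in control ovaries, a difference of 1.13 ± 0.33 (adjusted p = 0.402), and the keratin gene krt18b 0.88 ± 0.36. The other higher member, krt5 (2.48), was named after its value was seen. Macrophage genes had 1 higher of 15 (6.67%) and 0 lower, the myeloid factor gene irf8, with 7.37, 8.68 and 9.15 CPM in starved and 4.39, 5.93 and 7.41 CPM in control ovaries (0.54 ± 0.17). The antigen presentation gene cd74a had -0.23 ± 0.34, and the integrin gene ITGA4 had an interval of -1.40 to 1.85. Single members with the smallest p were sptb (1.12 ± 0.35), a spectrin, among erythrocyte genes, and actn3a (1.1 ± 0.31), an actinin, among muscle genes. Likewise CPA1 (-1.23 ± 0.36), a carboxypeptidase, stood first among pancreas genes, and CXCR1 (-1.43 ± 0.47), a chemokine receptor, among neutrophil genes. CXCR1 rested on 19 reads in all starved and 44 in all control libraries. Of the 3 tested pancreas genes, 2 had positive estimates, unlike CPA1, and the median was 0.67. The 8 tested muscle genes had 4 positive and 4 negative estimates and a median of 0.0026. Besides actn3a, the muscle gene at an unadjusted p under 0.05 was the creatine kinase gene ckmb (0.91 ± 0.40). It had 138, 277 and 846 CPM in starved and 112, 144 and 302 CPM in control ovaries. The summed muscle list stood at 225 to 984 CPM in starved and 215 to 409 CPM in control libraries, highest in old-batch starved replicate 3. In that library ckmb alone had 846 CPM. The defining skeletal muscle markers acta1b, ckma and tnnt3a summed to 0.918 to 2.24 CPM in starved and 0.896 to 4.815 CPM in control libraries. Whether muscle RNA was present beyond these values, and any part of it in the other results, was not tested. The defining markers of lymphocytes and neutrophils summed to at most 1.89 CPM in starved and 2.1 CPM in control libraries. Over the full lists, lymphocyte genes summed to 2.143 to 26.35 CPM in starved and 1.084 to 32.97 CPM in control libraries. Most of that range came from rag1, at 0 to 20.7 CPM in starved and 0 to 26.3 CPM in control libraries. Neutrophil genes summed to 7.757 to 15.1 CPM in starved and 6.989 to 34.53 CPM in control libraries.

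**Figure D5:**
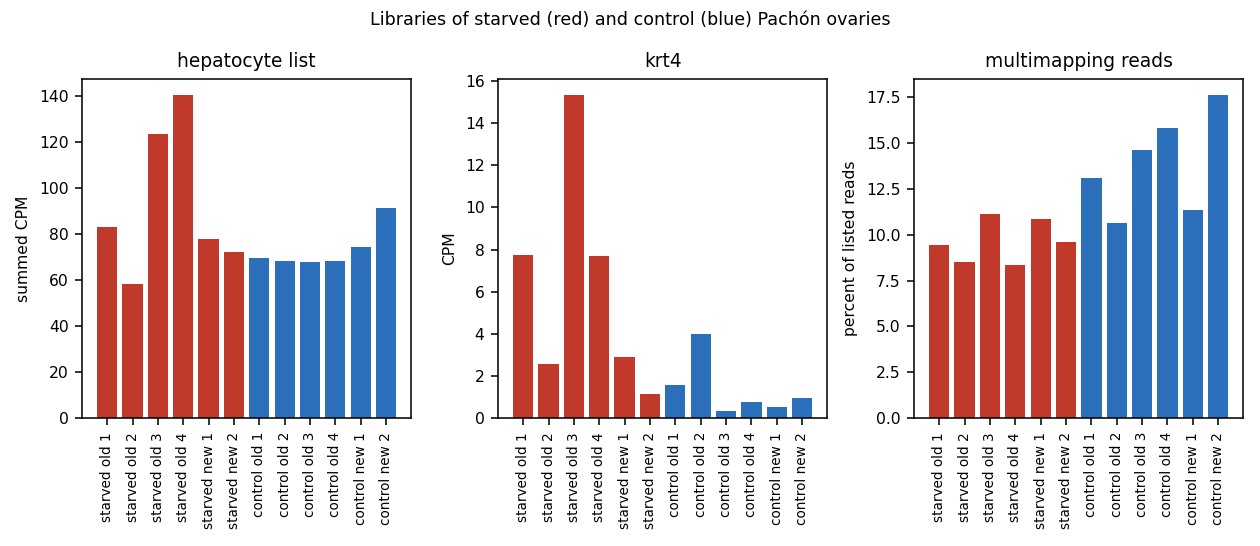
Summed CPM of the hepatocyte list, CPM of krt4 and share of multimapping reads in each of the 6 starved (red, left) and 6 control (blue, right) Pachón libraries, named by batch and replicate. Liver transcripts stand out in old-batch starved replicates 3 and 4, and the multimapping share is 8.32% to 11.1% in starved and 10.7% to 17.6% in control libraries.

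Within batches, a fit of the 4 group means called 3 genes in the old batch (0.0206%) and 0 in the new (0%), where 1369 genes were at an unadjusted p under 0.05. None of the 3 differed in the same direction in the new batch. AP3B1, a subunit of the AP-3 vesicle adaptor, had the smallest p. Its values were 42.6, 50.0, 38.9 and 37.1 CPM in starved and 82.2, 87.8, 87.3 and 77.8 CPM in control old-batch libraries, where it fell by 0.99 ± 0.10 on the log2 scale (adjusted p = 0.00123). In the new batch the values were 125 and 129 CPM in starved and 119 and 105 CPM in control libraries, and the test of old minus new gave -1.17 (adjusted p = 0.0751). The synaptic scaffold gene shank2b rose in the old batch, with 30.6 to 39.0 CPM in starved and 12 to 18.4 CPM in control libraries (1.18 ± 0.15, adjusted p = 0.0112), and stood at 15.3 and 13.1 CPM in starved and 21.3 and 20.2 CPM in control libraries of the new batch. The third gene has no symbol. Leaving out each of the 12 libraries in turn, AP3B1 was called in 12 fits, shank2b in 9 and the third gene in 8. The number of old-batch calls was 8 without control replicate 3 and 1 without starved replicate 2, control replicate 1 or control replicate 4 of that batch, and the new batch had 2 calls without its control replicate 1 and 1 without its starved replicate 2. Both named genes were chosen after their values were seen. The test of the difference between batches called 0 genes (0%), with 741 at an unadjusted p under 0.05, and at most 2 with a single library left out.

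Over all genes, the sign of the estimate was the same in both batches for 8435 of 14568 (57.9%), with 4341 higher (29.8%) and 4094 lower (28.1%) in both. Across genes, which are not independent, Pearson's correlation of the 2 changes was 0.083 and Spearman's rank correlation 0.19. Of the 348 genes lower at an unadjusted p under 0.05 in the old batch, 229 (65.8%) were lower in the new, and of the 598 higher ones 344 (57.5%) were higher in the new. Starting from the new batch, 557 of 780 lower genes (71.4%) were lower and 434 of 589 higher genes (73.7%) higher in the old.

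Surface fish, 4 starved and 6 control, were used to test where the cavefish response differed. In a fit of all 22 libraries, the interaction (Pachón minus surface response) called 4 of 15607 genes (0.0256%). In all 4 the difference was positive, which concerns the change and not the level. The matrix glycoprotein gene TINAGL1 had 26.6 to 38.6 CPM in starved and 25.1 to 32.0 CPM in control Pachón ovaries, and 1.15 to 3.31 CPM in starved and 2.04 to 28.9 CPM in control surface ovaries. In the new batch the surface libraries stood at 2.73 and 1.93 CPM when starved and 26.5 and 28.9 CPM as controls, and in the old batch they overlapped, at 1.15 and 3.31 CPM when starved and 2.04 to 3.13 CPM as controls. The responses of the 2 forms differed by 2.08 ± 0.26 (adjusted p = 0.0033). The thrombospondin gene thbs3b had 57.2 to 73.6 CPM in starved and 69.5 to 84.1 CPM in control Pachón ovaries, and 5.14 to 39.1 CPM in starved and 30.1 to 64.4 CPM in control surface ovaries, a difference of 1.44 ± 0.22 (adjusted p = 0.0122), and its surface groups overlapped in the old but not in the new batch. For the integrin subunit gene itga3b, a receptor for laminins, the values were 7.83 to 14.6 CPM in starved and 5.49 to 11.2 CPM in control Pachón ovaries, and 0.575 to 2.14 CPM in starved and 2.61 to 9.38 CPM in control surface ovaries, a difference of 2.63 ± 0.42 (adjusted p = 0.0201), and the surface groups did not overlap. The gene without a symbol, ENSAMXG00000001295, had 4.375 to 10.4 CPM in starved and 5.36 to 7.48 CPM in control Pachón ovaries. In surface ovaries it had 0 to 16.25 CPM when starved and 13.8 to 36.2 CPM as controls, which overlapped. Its responses differed by 3.72 ± 0.53 (adjusted p = 0.0095). These genes were chosen after their values were seen. Averaged over batches, all 4 genes fell in starved surface fish, and their Pachón changes in the same fit lay between -0.28 and 0.20. The number of calls was 786 when starved surface replicate 1 (new) was left out, 22, 15 and 13 without replicate 2 of the old surface controls, replicate 2 of the old starved surface fish and replicate 1 of the new surface controls, and it was 1 without replicate 1 of the new Pachón controls.

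The signs of the small Pachón differences were set beside the surface response. Of the 711 genes lower in Pachón at an unadjusted p under 0.05, 604 (85.0%) had a negative estimate in surface fish and 167 (23.5%) were called lower there, where 838 of 15607 genes (5.37%) were called lower in all. Of the 751 higher genes, 572 (76.2%) had a positive one and 80 (10.7%) were called higher, against 378 of 15607 (2.42%). Over all 14568 genes the signs were equal for 64.4%, and 6.48% were called in surface fish with the Pachón sign. The sizes depended on the form by which genes were chosen. The 796 genes called lower in surface fish had a median change of -0.17 in Pachón and -1.12 in surface ovaries. The 369 called higher there had 0.13 and 0.44. The 711 genes lower in Pachón had -0.32 in Pachón and -0.31 in surface ovaries, and the 751 higher ones 0.34 and 0.21. Choosing genes by 1 form enlarges the sizes in that form, so these medians do not compare the sizes of the responses. All 12 leading lower Pachón genes had negative surface estimates and 8 were called there, and 10 of the 12 leading higher genes had positive ones and 2 were called; none of the 24 was called in the interaction. For aqp9b, a water and glycerol channel gene, the changes were -1.0 in Pachón and -5.69 in surface ovaries (interaction adjusted p = 0.245), and for the taurine transporter gene slc6a6a -0.80 and -6.49 (adjusted p = 0.0877). Both surface sizes rest on starved values near 0. Surface aqp9b had 0 to 0.804 CPM in starved and 0.304 to 32.0 CPM in control ovaries, and slc6a6a 0 to 0.158 and 0.456 to 11.8 CPM. Genes from a list set with earlier results of these data known had positive surface estimates in the old and the new batch. These were 2.27 and 3.31 (lhx9), 1.97 and 2.44 (dmrta2), 1.87 and 3.27 (soat2) and 0.83 and 3.94 (fabp1a). Starved and control surface ranges overlapped for dmrta2, soat2 and fabp1a. The Pachón intervals of these genes were -0.57 to 0.99 (lhx9), -0.17 to 1.53 (dmrta2), -0.38 to 0.76 (soat2) and -0.42 to 1.21 (fabp1a).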

How the data were processed

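RNA from right-side ovaries was extracted with Trizol, depleted of ribosomal RNA and made into libraries with a kit that marks strand, per the labels' protocols. The deposited count table holds reads per gene and library for 27420 genes and 4 rows for reads in no gene. Those 4 rows, 34.1% to 44.6% of listed reads, stayed out of library sizes and tests. STAR 2.7.10b and RSEM are named without a role, per the submitters' processing notes. Which build and gene models were used, and whether counting used strand, is not stated in the sources used here, so overlapping, antisense and near-identical genes are uncertain. A second deposited table holds, as a normalized signal, the authors' CPM values for 14814 genes, which are the counts times 1 constant per library, and it was used only in alternatives.

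Groups came from the titles. The 12 Pachón libraries were fitted with edgeR 4.0.16 (R 4.3.3, TMM, filterByExpr with a minimum count of 10, robust quasi-likelihood, Benjamini-Hochberg adjustment over all tested genes, called at an adjusted p under 0.05) with batch and treatment as terms. Batches and their difference were taken from a fit of 4 group means, and the 2 forms from 8 group means over 22 libraries. SE is the log2 difference over the square root of F, and intervals are 95%. The steps were tested on simulated data. Alternatives used DESeq2 1.42.0, limma 3.58.1, other scalings, filters and left-out libraries. Named genes were any called ones, the 12 with the smallest p per direction (with a symbol, mean log2 CPM of at least 1, and 1 sign in both batches), up to 3 per list and a set list. The members and lists were chosen with earlier results of these data known. Replicate numbers were not used as pairs in the main fit.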

Additional observations from a re-analysis of the deposited data

Results flagged for a closer look

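In 22 of 296 groups of 4 old-batch libraries examined, 1 library lay far from the other 3 by Dixon's test at 95%, which chance alone does in about 1 group of 20. Of starved libraries, replicate 3 was far out for DGKQ (13.26 CPM), LTBP1 (33.06 CPM) and zar1 (1210 CPM). The same library was far out for the summed egg coat (9611 CPM), macrophage (1293 CPM), glycolysis and gluconeogenesis (6725 CPM) and nuclear oxidative phosphorylation lists (8229 CPM). Its macrophage markers csf1ra, c1qb and cd74a stood at 6.54, 0.517 and 7.58 CPM, each within the range of the other starved libraries. Replicate 4 of the starved old batch stood apart for klf11a (54.01 CPM), abca1a (29.39 CPM), dmrta2 (29.65 CPM), figla (7.016 CPM) and the summed TGF-beta list (1437 CPM). Replicate 1 of that batch stood apart for the matrix genes sparc (12.19 CPM) and col1a1b (39.3 CPM).

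Of control libraries, replicate 3 of the old batch stood apart for sh3bgrl3 (45.34 CPM), atp6v0d1 (99.81 CPM), hpxa (0.1792 CPM, the other 3 at 0) and its share of ambiguous reads (0.2839%). Replicate 2 stood apart for cpt1aa (8.467 CPM) and the summed endothelium list (35.53 CPM), replicate 1 for the summed fatty acid oxidation list (2245 CPM), and replicate 4 for ambp (0.188 CPM, the other 3 at 0).

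The Pachón and surface responses differed by a test of the interaction in 4 genes, with log2 differences of 2.08 for TINAGL1, 1.44 for thbs3b, 2.633 for itga3b and 3.723 for a gene without a symbol.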

How the results depend on the processing

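Over both batches, 0 genes were called with voom, limma on the deposited CPM, RLE, upper quartile or no factors, no robust estimation, a stricter filter, no batch term, 4 group means or all 22 libraries. DESeq2 called 20, edgeR without a filter on low counts called 2, and leaving out single libraries gave 0 to 4. With the replicate number as a block, 0 genes were called and the smallest adjusted p was 0.069. Same-numbered libraries correlated at -0.19 to 0.086, and 1 of 6 libraries correlated best with its own number. With 4 or 2 libraries a group, these correlations cannot decide whether the numbers pair samples. The block gave 2 calls in the old batch, 1 in the new and 5 between the forms.

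Without the 2 libraries with liver transcripts, an alternative chosen after seeing the data, 927 genes and 65 list members were at an unadjusted p under 0.05. That count of list members was 91 to 180 with single libraries left out, with 91 without starved old replicate 4, 93 without starved new replicate 2 and 93 without control old replicate 3. Calls in the old batch were 1 in the fit of all 22 libraries and 1 to 8 with single libraries left out. In the new batch they were 1 with that batch alone and 0 to 2 with single libraries left out. For the difference between batches they were 3 without a filter and 0 to 2, and between the forms 1 to 786, with single libraries left out. Without regard to batch, 53 genes were lower and 34 higher without overlap. The share of reads in no feature differed by 0.329 to 0.632 percentage points, and that of ambiguous reads by -0.00034 to 0.0106, with single libraries left out.

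Of 2855 pairs of a named gene and a setting, 26 had the other sign, in 6 genes. For fbxo32 the difference was -0.052 with 22 libraries, -0.001985 without batch, -0.039 with group means, -0.034 without factors, -0.004833 with voom, -0.024 without the liver libraries and -0.013 to 0.044 with single ones left out. For gdf9 it was -0.030 without factors and -0.014 to 0.046. For figla it was -0.050 with voom, -0.088 without the liver libraries and -0.068 to 0.27, and for col1a1b 0.083 without the liver libraries and -0.75 to 0.095. For bmp15 it was -0.0081 to 0.089 and for ITGA4 -0.071 to 0.52 with single libraries left out. Without a filter 51.7% of genes had an interval inside 2-fold and the granulosa median was -0.009618. The hepatocyte median was 0.048 under the stricter filter. The causes were not tested. Intervals were widest for genes with low counts, and the new batch has 2 libraries a group.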
